A study of Mus musculus with 6 samples.

Results

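The Dppa genes (developmental pluripotency associated) were described here by the rows Dppa2, Dppa3, Dppa4 and Dppa5a of a table of RPKM values, 4 of its 12331 gene rows. RPKM divides the reads of a gene by its length and by the alignments of the library, so that levels of different genes can be set side by side. All 4 rows were present, and each stood at 1 RPKM or more in all 6 libraries. The rule named the genes and used no measured value, but the genes were chosen with earlier results of these data known.

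The values came from the mouse embryonic stem cell line E14tg2a, grown in serum medium with LIF, the cytokine that keeps such cells undifferentiated. Total RNA of the cultured cells was diluted to 10 pg per reaction, an amount the labels set equal to a single cell, copied from oligo(dT) primers and amplified by 20 PCR cycles. In 3 libraries the cDNA was cut and tagged by hyperactive Tn5 transposase (tagmentation), from 100 ng of cDNA for 5 min at 55 °C and with 13 further PCR cycles. In the other 3 it was sheared by sonication before adaptors were ligated. No genotype or treatment differed between the groups, and the series set the 2 preparation methods against each other. Both methods carry the replicate numbers 1 to 3, described by the submitters as technical replicates of each method, so a p-value speaks of the spread among these libraries, not among cultures. The sample descriptions call the material a single cell lysate, whereas the protocol describes diluted RNA of a culture, and the account here follows the protocol. If the RNA came from many cells, fewer cells with a transcript and less of it per cell cannot be told apart.

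The 4 genes share a name because their transcripts mark pluripotent cells and the early embryo, not because they form 1 protein family. Dppa2 and Dppa4 are related nuclear proteins with a SAP domain that bind DNA as a pair, keep developmental promoters open to later use and, in mouse stem cells, are needed for the 2-cell-like state. Dppa3 (Stella, PGC7) protects DNA methylation in the zygote, and in stem cells and oocytes it draws the methylation cofactor Uhrf1 away from chromatin. Dppa5a (Esg1, Ecat2) is a small protein with an RNA-binding KH domain and a long-used marker of undifferentiated stem cells.

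The libraries held 18852822 to 34681566 alignments. Libraries of the same number resembled each other far more than libraries of the same method: Pearson correlations of log2(RPKM + 1) over 6327 tested genes were 0.958 to 0.977 for the 3 same-number pairs, against 0.453 to 0.723 within a method. Stem cell transcripts were present, with Pou5f1 between 91.5 and 260 RPKM and Zfp42 between 164 and 444 RPKM, although Nanog had a listed 0 in number 3 with both methods.

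Dppa5a was by far the most abundant of the group, and its transcript stood highest in number 1 and lowest in number 3 with both methods. It had 1625, 998 and 670 RPKM in tagmentation libraries 1, 2 and 3, against 1739, 796 and 455 RPKM in the sonication libraries of the same numbers. These were 1097.8 ± 485 and 997 ± 665 RPKM (SD, n = 3 each), so the methods overlapped almost wholly. The gene made up 83.4% to 90.6% of the summed RPKM of the 4 genes. Among all rows it took rank 7 of the tagmentation library of number 1 and rank 16 of the sonication library of that number, and ranks 89 and 101 in number 3.

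Dppa4 followed the same course at a lower level. Its values were 116, 73.0 and 48.9 RPKM after tagmentation, against 141, 59.4 and 34.5 RPKM after sonication, or 79.3 ± 34.0 and 78.4 ± 55.9 RPKM (SD, n = 3 each). Number 1 was again highest and number 3 lowest with both methods. Tagmentation was the lower of the pair in number 1 and the higher in numbers 2 and 3, as it was for Dppa5a.

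Dppa2, the DNA-binding partner of Dppa4, was the scarcest of the 4 and did not follow it. It had 15.6, 1.10 and 3.37 RPKM after tagmentation, against 10.5, 1.59 and 2.54 RPKM after sonication, or 6.71 ± 7.83 and 4.88 ± 4.90 RPKM (SD, n = 3 each). Number 1 stood apart with both methods, and number 2 was lowest, where Dppa4 held its middle place. The level of Dppa4 was 7.42, 66.2 and 14.5 times that of Dppa2 in tagmentation libraries 1 to 3, and 13.4, 37.3 and 13.6 times in sonication libraries 1 to 3.

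Dppa3 had another pattern, high in numbers 1 and 2 and low in number 3. Tagmentation gave 75.9, 124 and 19.3 RPKM and sonication 66.5, 70.3 and 10.2 RPKM, or 73.1 ± 52.5 against 49.0 ± 33.7 RPKM (SD, n = 3 each). It was the only one of the 4 whose tagmentation value exceeded the sonication value in all 3 numbers, but the groups of libraries overlapped. The methods did not overlap in 152 of the tested genes (2.4%), and in none of these 4. All 4 genes kept 1 order of level in numbers 1 and 3, namely Dppa5a, Dppa4, Dppa3 and Dppa2. In number 2 Dppa3 passed Dppa4, with 1.70 times its level after tagmentation and 1.18 times after sonication. The ranges of these 2 genes over the libraries overlapped, while Dppa5a lay above and Dppa2 below both in each library.

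**Figure D1:**
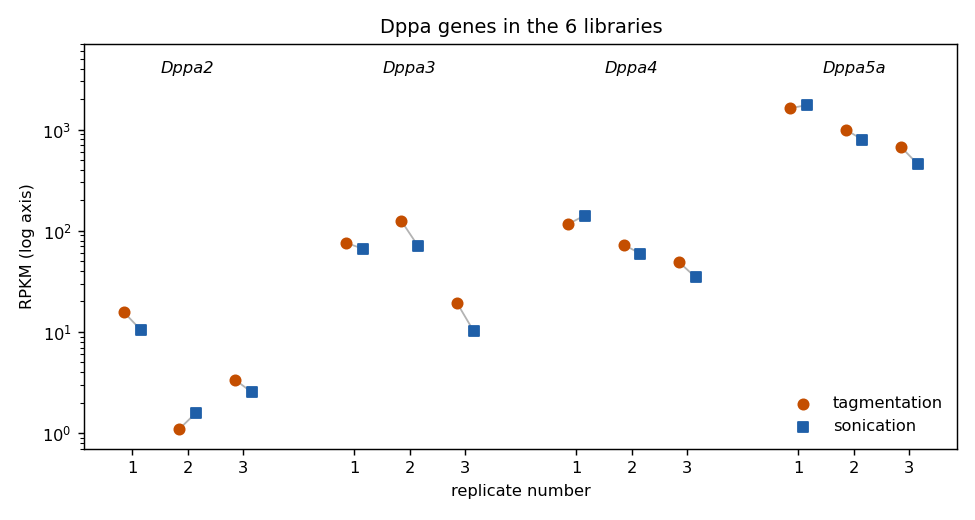
RPKM of the 4 Dppa genes on a log axis, by replicate number, with tagmentation (circles) left of sonication (squares) and a line joining the libraries of 1 number. Dppa5a lies between 455 and 1739 RPKM and Dppa2 between 1.10 and 15.6 RPKM, and within each gene the highest and lowest numbers lie further apart than the methods within any number.

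Counting error was small beside these differences. For 3 of the genes the deposited values came out as whole reads in all 6 libraries, within the rounding of the file, at 1 gene length and its multiples: 1941 bases for Dppa2, 818 bases for Dppa3 and 639 bases for Dppa5a. For Dppa4 no length up to 10000 bases did so, and its reads are not given. Dppa2 had 638, 74 and 227 reads in tagmentation libraries 1 to 3, and 618, 68 and 93 reads in sonication libraries 1 to 3. Its exact 95% Poisson interval in number 2 was 0.865 to 1.38 RPKM after tagmentation and 1.24 to 2.02 RPKM after sonication, which overlap in part. In number 1 it was 14.5 to 16.9 RPKM after tagmentation and 9.70 to 11.4 RPKM after sonication, far from either value of number 2. Dppa3 rested on 157 to 3514 reads and Dppa5a on 5477 to 33671. PCR copies carry no molecular identifier here, so such intervals cover counting error only and not the loss of molecules before amplification.

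Between the methods, none of the 4 genes passed the test. The test was limma on log2(RPKM + 1), tagmentation minus sonication, with Benjamini-Hochberg adjustment over all tested genes. At an adjusted p under 0.05 limma called 0 of the 6327 (0%), and 18 had an unadjusted p under 0.05 (0.284%). The log2 difference was 0.62 for Dppa3 (SE 0.91), 0.26 for Dppa5a (SE 0.51), 0.18 for Dppa2 (SE 1.26) and 0.17 for Dppa4 (SE 0.63), each with an adjusted p of 1.00. The median over all tested genes was 0.028. The 95% intervals were -2.64 to 3.00 for Dppa2, -1.42 to 2.66 for Dppa3, -1.24 to 1.57 for Dppa4 and -0.87 to 1.39 for Dppa5a, so the test left room for differences of more than 2-fold in either direction, and for Dppa5a upward. In this fit the directions moved with single libraries: without tagmentation replicate 1 the differences were -0.64 for Dppa2, -0.15 for Dppa4 and -0.067 for Dppa5a. Without sonication replicate 3 all 4 were below 0, from -0.29 for Dppa4 to -0.030 for Dppa2. Leaving out 1 library breaks up a same-number pair, and with whole numbers left out and the block kept, all 4 differences stayed above 0, from 6.0e-04 for Dppa2 without number 1 to 0.84 for Dppa3 without number 1.

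With the replicate number as a block, limma's intervals became narrower and still no Dppa gene was called, where 208 of 6327 tested genes (3.29%) were, 100 of them higher after tagmentation (1.58%). Dppa3 came nearest, with a log2 difference of 0.62 (SE 0.30, 95% interval 0.035 to 1.20) and an adjusted p of 0.26. Its tagmentation value was 1.14, 1.76 and 1.90 times the sonication value in numbers 1, 2 and 3. Higher in all 3 numbers were also 1241 of the tested genes (19.6%), so this direction alone does not set Dppa3 apart. Without number 1, leaving 2 pairs, Dppa3 was called higher after tagmentation (log2 difference 0.84, SE 0.19, adjusted p 0.019), at a setting where limma called 1051 genes. Dppa2 was 1.49, 0.692 and 1.33 times as high after tagmentation, with a blocked log2 difference of 0.18 (95% interval -0.38 to 0.73). Dppa4 was 0.821, 1.23 and 1.42 times as high, with an interval of -0.42 to 0.75, and Dppa5a was 0.934, 1.25 and 1.47 times as high, with an interval of -0.33 to 0.85.

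The differences of Dppa3, Dppa4 and Dppa5a between methods were ordered over the numbers as the libraries as a whole were. Over all tested genes the median log2 difference between methods was -0.072 in number 1, 0.079 in number 2 and 0.20 in number 3. Dppa3 had 0.19, 0.81 and 0.86 in the same numbers, Dppa4 had -0.28, 0.29 and 0.49, and Dppa5a had -0.098, 0.33 and 0.56. How many tested genes had this order was not counted. It stayed with median-ratio scaling, which divides each library by a single factor, where the medians were -0.018, 0.11 and 0.22. Dppa3 then had 0.26, 0.84 and 0.89, Dppa4 had -0.21, 0.33 and 0.51, and Dppa5a had -0.022, 0.36 and 0.57. After quantile normalization, which gives all libraries 1 distribution, the order was gone for these genes. Dppa3 had 0.31, 0.67 and 0.41, Dppa5a had 0.52, 0.17 and 0.15, and Dppa4 had -0.15, 0.096 and -0.032. Dppa2 had 0.70, 0.039 and 0.48. Under this scaling Dppa2, Dppa3 and Dppa5a were higher after tagmentation in 3 of 3 numbers, and the mean difference of Dppa4 was -0.027. The share of all tested genes with that direction was 19.6% as deposited and was not counted under this scaling. Whether the direction sets these Dppa genes apart under quantile normalization was therefore not tested.

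**Figure D2:**
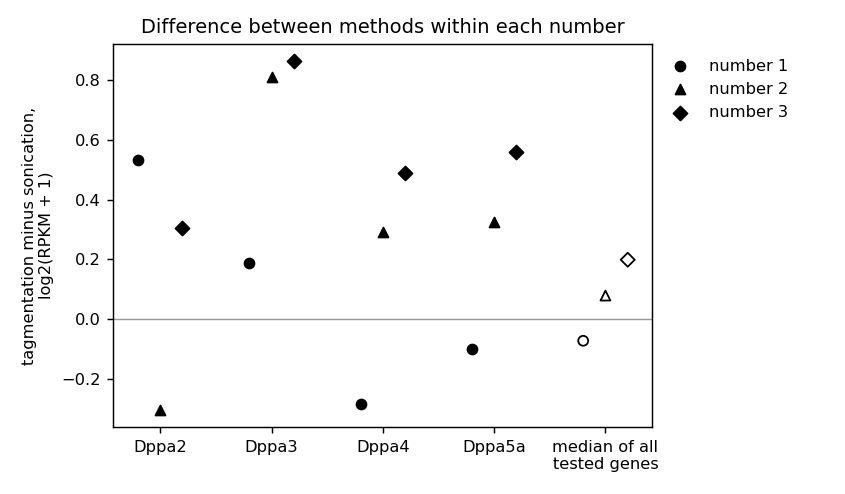
Log2 difference of tagmentation minus sonication on the log2(RPKM + 1) scale, for each Dppa gene in numbers 1 (circles), 2 (triangles) and 3 (diamonds), with the median of all 6327 tested genes as open symbols. All 3 values of Dppa3 lie above 0, from 0.19 to 0.86, while the other genes have 1 value below 0.

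The replicate number moved all 4 genes. An F test over the numbers in limma, with the method as a term, gave adjusted p-values of 3.6e-12 for Dppa3, 1.3e-11 for Dppa2, 1.1e-04 for Dppa4 and 1.4e-04 for Dppa5a. It called 88.1% of the 6327 tested genes, so a call for each of 4 genes is near the background. The range on the log2(RPKM + 1) scale, from the lowest number to the highest, was 2.65 for Dppa3, 2.57 for Dppa2, 1.62 for Dppa4 and 1.60 for Dppa5a. The median range of all tested genes was 2.38, and 58.5% were called with a range of at least 4-fold, as Dppa2 and Dppa3 were. With median-ratio scaling of the libraries the ranges of Dppa4 and Dppa5a dropped to 1.03 and 1.01, with adjusted p-values of 0.013 and 0.015, and those of Dppa2 and Dppa3 were 2.44 and 2.16. Each number has 1 library of each method, so this test takes the disagreement between methods as its error, and with 210 prior degrees of freedom limma takes that error mostly from other genes of similar abundance. Without either library of number 2 the calls on Dppa4 (adjusted p 0.065 without tagmentation replicate 2 and 0.067 without sonication replicate 2) and Dppa5a (0.094 in both cases) were lost.

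Single contrasts between numbers showed where each gene changed. Dppa2 was higher in number 1 than in number 2 by 2.57 on the log2 scale (SE 0.35, adjusted p 9.3e-12) and than in number 3 by 1.81 (SE 0.35, adjusted p 8.4e-07). Between numbers 2 and 3 it differed by -0.75 (SE 0.35, adjusted p 0.048). Dppa3 did not pass the test between numbers 1 and 2 (-0.39, SE 0.36, adjusted p 0.33), but number 2 exceeded number 3 by 2.65 (SE 0.36, adjusted p 3.7e-11) and number 1 exceeded it by 2.26 (SE 0.36, adjusted p 7.8e-09). Dppa4 and Dppa5a were higher in number 1 than in number 2 by 0.95 and 0.91 and than in number 3 by 1.62 and 1.60, and each of these passed. Between numbers 2 and 3 they differed by 0.67 and 0.69, which did not pass (adjusted p 0.10 and 0.092). These contrasts called 71.1% of tested genes for number 1 against 2, 74.3% for 1 against 3 and 63.2% for 2 against 3, and the contrasts of 1 number share its libraries.

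Whether Dppa5a varied widely beside the most abundant genes depended on the scaling. In the values as deposited, the 38 tested genes with a mean above 1000 RPKM had a median range of 0.77 between numbers on the log2(RPKM + 1) scale. Dppa5a itself, with a mean of 1047 RPKM over the 6 libraries, stood just above this cutoff. Genes just under 1000 RPKM were not compared. None of these 38 had a larger range than the 1.60 of Dppa5a, and none after quantile normalization (1.89 for Dppa5a, median 0.44). With median-ratio scaling 23 of the 38 had a larger range than Dppa5a, which then had 1.01 against a median of 1.13. Eef1a1, the translation elongation factor that lies a few genes from Dppa5a, is among the 38 and had the smallest range of them as deposited (0.27). Its level was above that of Dppa5a in each library, with 2124, 1961 and 2146 RPKM after tagmentation, against 2190, 1776 and 1497 RPKM after sonication. Over all levels and as deposited, 31.5% of tested genes had a smaller range than Dppa5a and 54.7% a smaller one than Dppa2.

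**Figure D3:**
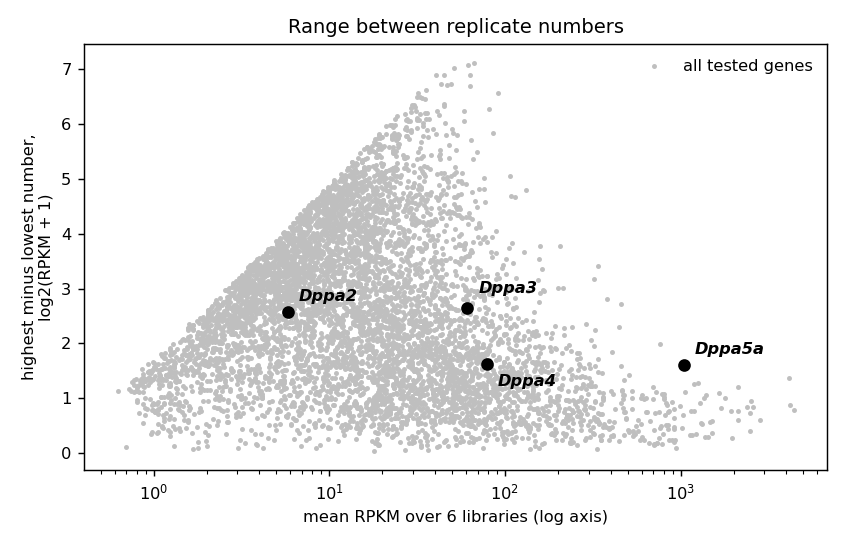
Difference between the highest and lowest replicate number on the log2(RPKM + 1) scale against mean RPKM on a log axis, for 6327 tested genes (grey) and the 4 Dppa genes (black). In these values, as deposited, Dppa5a lies at the top of the sparse group above 1000 RPKM, at 1.60, with a mean of 1047 RPKM just above that cutoff. With median-ratio scaling it has 1.01, and 23 of 38 such genes lie above it. The other 3 Dppa genes lie among many genes of like level.

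In the values as deposited, Dppa4 and Dppa5a ran in parallel through all 6 libraries. The level of Dppa5a was 14.0, 13.7 and 13.7 times that of Dppa4 after tagmentation, and 12.3, 13.4 and 13.2 times after sonication, while either gene varied by about 4-fold (3.83-fold for Dppa5a and 4.09-fold for Dppa4 over all libraries). Likeness was measured as the root-mean-square difference of log2(RPKM + 1) over the 6 libraries after each gene's own mean was taken off. By this measure Dppa5a was the nearest of 6326 other tested genes to Dppa4, and Dppa4 the nearest to Dppa5a, at 0.059. Close behind for Dppa5a came Cox7a2, a subunit of cytochrome c oxidase (0.059), and for both genes Pgk1, a glycolytic kinase (0.061 from Dppa5a and 0.065 from Dppa4). Birc5 (survivin, a mitotic protein) came next for Dppa4 at 0.080. The 6 libraries fall into 3 tight pairs, so likeness rests on little more than 3 levels per gene and many genes lie close. With median-ratio scaling the ranges of Dppa4 and Dppa5a between numbers stayed close, at 1.03 and 1.01. That scaling divides each library by a single factor and moves 2 genes this abundant almost alike, so it could not test the parallel. After quantile normalization the ranges were 1.49 and 1.89, and the method differences in number 1 were -0.15 and 0.52, so the parallel was looser there.

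The other pairs of Dppa genes were less alike, and Dppa2 and Dppa3 were the furthest apart. Of 6326 other tested genes, Dppa4 was number 833 in likeness to Dppa2 and Dppa5a number 847, both at 0.78, and Dppa3 number 3759, at 1.56. In likeness to Dppa3, Dppa5a was number 1104, at 0.83, and Dppa4 number 1166, at 0.86. Nearest to Dppa2 were Tpm4, a tropomyosin (0.18), Slc30a1, a zinc exporter (0.18), and Nsa2, a ribosome assembly factor (0.19). Tpm4 had 54.2, 8.80 and 20.0 RPKM after tagmentation, against 49.4, 11.0 and 14.9 RPKM after sonication, the same high number 1 and low number 2. Nearest to Dppa3 were Exo1, an exonuclease of mismatch repair (0.13), Slc23a2, a vitamin C transporter (0.14), and Mosc2 (0.17). Exo1 had 31.0, 51.7 and 7.79 RPKM after tagmentation, against 31.2, 36.6 and 4.54 RPKM after sonication.

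**Figure D4:**
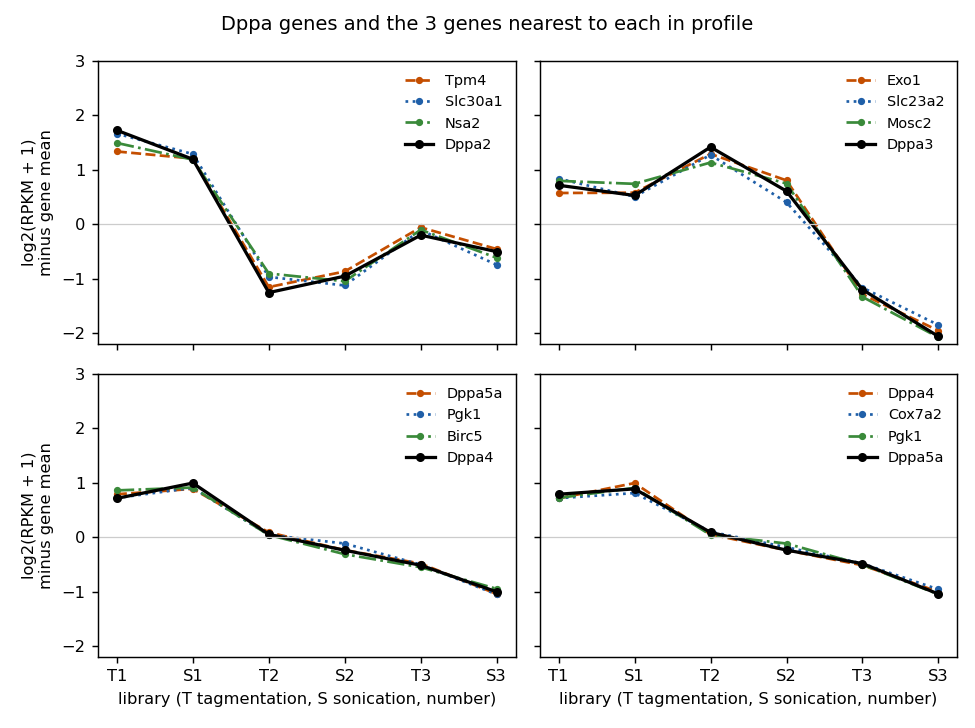
Profiles of log2(RPKM + 1) minus each gene's mean over the 6 libraries (T tagmentation, S sonication, with the replicate number), for each Dppa gene (black) and the 3 tested genes nearest to it (coloured, broken lines); lines only guide the eye. Dppa4 and Dppa5a share a profile at 0.059, while Dppa2 is lowest in number 2 and Dppa3 in number 3.

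Genes beside the Dppa genes on the chromosome did not share 1 pattern. In the RefSeq order of protein-coding genes (GRCm38.p6, while the submitters name mm9) Dppa4 and Dppa2 are next to each other on chromosome 16, followed by Morc1, a germ cell chromatin factor. Morc1 had 9.36, 1.15 and 0.681 RPKM after tagmentation and 7.51, 2.38 and 1.10 RPKM after sonication, high in number 1 as its neighbours were. Dppa3 lies on chromosome 6 between Gdf3, a TGF-beta family ligand of stem cells, and Nanog. Gdf3 was highest where Dppa3 was lowest, with 38.2, 61.1 and 217 RPKM after tagmentation and 46.9, 46.1 and 135 RPKM after sonication. Nanog had 8.39 and 4.48 RPKM in tagmentation libraries 1 and 2, and 7.16 and 3.85 RPKM in sonication libraries 1 and 2. Ooep, an oocyte gene with a KH domain next to Dppa5a on chromosome 9, had 137, 62.0 and 75.9 RPKM after tagmentation and 144, 47.9 and 54.3 RPKM after sonication, high in number 1 like Dppa5a. Of 13 listed neighbours 9 had a row and 7 were tested. None differed between methods with or without the block, and 5 of 7 differed between numbers (median range 1.99), against 88.1% of all tested genes and their median range of 2.38.

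**Figure D5:**
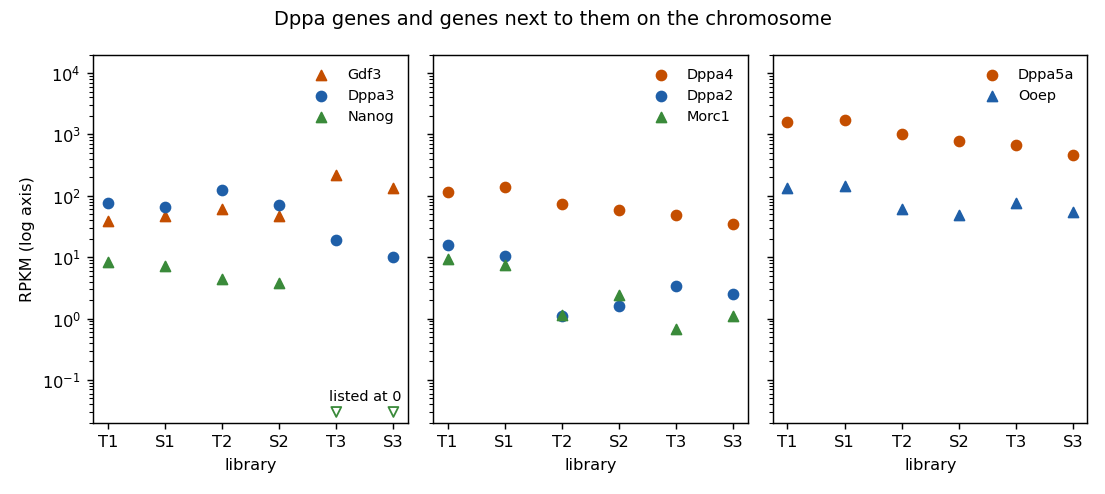
RPKM on a log axis of Dppa genes (circles) and genes next to them on the chromosome (triangles) in the 6 libraries (T tagmentation, S sonication, with the replicate number); open triangles at the bottom mark values listed at 0. Gdf3 is highest in number 3, at 217 and 135 RPKM, where Dppa3 is lowest, at 19.3 and 10.2 RPKM.

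Genes that work with Dppa3 on DNA methylation were mostly detected, and 7 of 10 were tested. Uhrf1, which recruits the maintenance methyltransferase Dnmt1, had 19.1, 3.19 and 0.143 RPKM after tagmentation and 16.8, 2.90 and 1.38 RPKM after sonication, so that number 3 was lowest for it and for Dppa3. Number 3 was lowest for 39.3% of all tested genes. In number 2, where Dppa3 was highest, Uhrf1 was already far below its level in number 1. Dnmt1 was highest in number 3, with 28.7, 53.6 and 77.1 RPKM after tagmentation and 36.9, 40.8 and 51.4 RPKM after sonication. Dnmt3b, a de novo methyltransferase, had 69.3, 99.3 and 28.8 RPKM against 57.9, 58.7 and 12.6 RPKM, highest in number 2 and lowest in number 3 with both methods, like Dppa3. Dnmt3a went the other way, with 0.645, 6.37 and 14.1 RPKM against 0.488, 4.25 and 5.88 RPKM. Of the 7 tested genes 3 were highest in number 3, 2 in number 1 and 2 in number 2. None of the 7 was called between methods, with or without the block (median log2 difference 0.29 against 0.028 over all tested genes). Between numbers 5 of 7 were called, 2 of them with a range of at least 4-fold, at a median range of 0.93. Over all tested genes 88.1% were called and 58.5% were called with such a range, at a median of 2.38. Tet1, an eraser of DNA methylation, was not tested, with 12.9, 0.231 and 0.153 RPKM after tagmentation and 7.08, 0.666 and 0.455 RPKM after sonication.

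Genes downstream of Dppa2 and Dppa4 were near the detection limit. Of 15 listed genes of the 2-cell-like state, 7 had a row, none was tested, and the highest value was 0.803 RPKM, for Zfp352 in tagmentation library 3. The other listed targets were Mael, a germline factor, at up to 1.20 RPKM in tagmentation library 1, and Nkx2-5 and Syce1, which stayed under 1 RPKM in all 6 libraries. In the wider pluripotency network 23 of 25 listed genes had a row and 22 were tested. None differed between methods, and 1 did with the block, against 3.29% of all tested genes. It was Fbxo15, an F-box gene of stem cells, which was lower after tagmentation at -1.37 (SE 0.30, adjusted p 0.0015). Between numbers 18 of 22 differed, with a median range of 2.69, against 88.1% and a median of 2.38 over all tested genes. Of these 22 genes, 13 were highest in number 1, as Dppa2, Dppa4 and Dppa5a were, against 39.7% of all tested genes.

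Single markers of other cell types were also high in number 1, while other markers were not. The germ cell and oocyte list had 4 of 9 genes with a row, and their summed level was 10.8 RPKM in tagmentation and 26.4 RPKM in sonication library 1, against 0.487 to 2.94 RPKM in the other 4 libraries. Most of it was Nanos3, a germ cell RNA-binding protein, with 8.02 RPKM after tagmentation and 23.6 RPKM after sonication in number 1 and a listed 0 elsewhere. Prdm1, a regulator of germ cell fate, had 2.67 and 2.08 RPKM there. Ddx4, a germ cell helicase, was instead highest in number 2 after sonication, at 2.94 RPKM, and Zp3, an egg coat protein, was above 0 in number 3 alone, at 0.525 and 0.362 RPKM. The trophoblast list had 2 of 3 genes with a row and 20.6 RPKM in both libraries of number 1, all but a trace of it Gata3, against 0.184 to 0.561 RPKM elsewhere. The fibroblast list had 4 of 4 and summed to 9.55 and 12.1 RPKM in number 1, against 0.106 to 3.27 RPKM elsewhere. Col1a1 and Col1a2 were listed at 0 in both libraries of number 1, as was Pdgfrb, and that sum was Thy1. Col1a1 and Pdgfrb were highest in number 2, at 0.621 and 0.470 RPKM after tagmentation and 0.832 and 0.286 RPKM after sonication. None of the 3 listed extraembryonic endoderm markers had a row. Whether these transcripts have a part in the high Dppa values of number 1 was not tested.

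Some sequence of each Dppa transcript occurs in other genes, and how the submitters counted such reads is not given in the sources used here. In the longest coding GENCODE transcript of each gene, words of 50 bases found exactly in transcripts of other genes made up 38.6% for Dppa5a, 35.9% for Dppa4, 29.1% for Dppa2 and 17.7% for Dppa3. With words of 36 bases the shares were 52.2%, 42.6%, 32.6% and 27.9%. A word counted as found when it or its reverse complement occurred in the other transcript. The carriers of 50-base words other than Pigp included Dppa5b and Dppa5c for Dppa5a. The rest had systematic or pseudogene names, such as Dppa3-ps for Dppa3. For Dppa2 the 36-base words had 99 carriers, 42 of them with a row of their own. The only carrier of 50-base words with such a row was Pigp, a gene of GPI anchor synthesis that shares 70 such words with Dppa5a. It had 205, 76.5 and 56.0 RPKM after tagmentation and 191, 60.6 and 37.8 RPKM after sonication. No word of either length was shared between 2 of the 4 genes described here, while Dppa5b and Dppa5c shared words of both lengths with Dppa5a. The absolute levels of the 4 genes are uncertain for this reason, by an amount that the shares of words do not measure.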

How the data were processed

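Gene levels were taken from 1 table with a column for each of 6 libraries of E14tg2a cells. Per the file headers the authors deposited RPKM, together with each library's number of alignments. The submitters' processing notes name CASAVA 1.7.0, Partek and the build mm9. The aligner, annotation and strand setting were not given in the sources used here.

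Genes at 1 RPKM or more in at least 3 libraries were tested (6327) with limma 3.58.1 in R 4.3.3 on log2(RPKM + 1), a scale that understates changes of low genes. The fits used eBayes with a trend, two-sided tests and Benjamini-Hochberg adjustment at a threshold of 0.05, and were tested on simulated data. The method was the only term, or the replicate number was added as a block or tested itself. Libraries of the same number were taken as pairs, because their deviations from the method means correlated by 0.934 to 0.969, although the labels do not say that they share a cDNA. The same-method correlations of log2(RPKM + 1) (0.453 to 0.723) were far below those of same-number pairs (0.958 to 0.977). Whether libraries of 1 method came from the same RNA was not tested. Named genes were the 4 Dppa genes, the 3 nearest in profile to each and members of set lists. The members and lists were chosen with earlier results of these data known. Alternatives covered the pseudocount, filter, scaling, block and left-out libraries.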

Additional observations from a re-analysis of the deposited data

How the results depend on the processing

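Between methods no Dppa gene was called in any of 15 or 16 alternatives each, except Dppa3 with the replicate block and without replicate 1. The count of called genes, 0 without the block, was 208 with the replicate block, and, with the replicate block, 1051 without replicate 1, 10 without replicate 2 and 19 without replicate 3. It stayed at 0 with each library left out. Differences changed sign without tagmentation replicate 1 (-0.64 for Dppa2, -0.15 for Dppa4, -0.067 for Dppa5a), without sonication replicate 3 (-0.030 for Dppa2, -0.26 for Dppa3, -0.29 for Dppa4, -0.19 for Dppa5a), without sonication replicate 2 (-0.26 for Dppa2) and with quantile normalization (-0.027 for Dppa4), and the cause was not tested. Over the libraries left out they ranged from -0.64 to 0.85 for Dppa2, -0.26 to 1.38 for Dppa3, -0.29 to 0.71 for Dppa4 and -0.19 to 0.77 for Dppa5a. With the block and another pseudocount, filter or scaling, chosen after seeing the data, no Dppa gene was called, and the count of calls was 0 to 476. The count differing between numbers was 3411 of 4023 genes when only genes averaging at least 10 RPKM were tested, which leaves fewer genes, and 4342 to 5867 with 1 library left out. Dppa2 and Dppa3 stayed called between numbers in all 12 and 13 alternatives, Dppa4 and Dppa5a in 11 of 13, being lost without either library of number 2. With median-ratio scaling their ranges were 1.03 and 1.01, against 1.62 and 1.60. With the mean filter Dppa2 was not tested.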
